A study of Mus musculus with 15 samples.

Results

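The mammalian circadian clock was examined through 10 of its genes in mouse skeletal muscle: the activators Arntl and Clock, the repressors Per1, Per2, Per3, Cry1 and Ciart, the nuclear receptors Nr1d1 and Nr1d2, and the output factor Dbp. They were taken by symbol from a list of core clock and clock output genes, and all 10 were found among the 42396 gene entries of each of 2 count tables. RNA-seq libraries were made from tibialis anterior (the fast-twitch muscle along the shin) of adult C57BL/6 mice, 2 months after injection of adeno-associated virus AAV6 into the hindlimb. The virus carried LSMEM2 C-del in one arm and the green fluorescent protein EGFP, called mock, in the controls, so every mouse had received virus. There were 4 male C-del and 4 male mock libraries in one table, and 4 female C-del and 3 female mock libraries in the other. The labels do not explain C-del, and neither the promoter in the virus, the age in weeks nor the hour of collection is given in the sources used here.

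In the clock of mammalian cells, ARNTL (also called BMAL1) and CLOCK bind E-box sequences and switch on the Per and Cry genes, whose proteins then repress ARNTL and CLOCK. A further loop runs through NR1D1 and NR1D2 (REV-ERB alpha and beta), which are switched on by the same activators and repress Arntl. In mouse tissues Arntl RNA peaks around the end of the night, Nr1d1 around midday, Dbp and the Per genes later in the day and Cry1 during the night. The level of each gene therefore depends on when a muscle was taken, and high Arntl usually goes with low Dbp. Per1 is also an acute-response gene, induced by glucocorticoid hormone and by CREB, a factor activated by cAMP and calcium signals.

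A promoter window of RefSeq (build GRCm38.p6, 250 bases before to 50 after the start of a transcript) was found for 9 of the 10 genes, 13 windows in all. Per2 had no window and was not searched. Both strands were searched for the E-box CACGTG, the D-box (TTATGTAA or TTACGTAA, the site of DBP and its relatives) and the cAMP response element TGACGTCA, spellings that do not overlap one another. At least 1 match was found for 4 genes, and their 250 bases before the start are shown with the matches in capitals, because they show which of these elements sit at the starts of the genes measured here.
Per1 (chr11:69098699-69098948, + strand): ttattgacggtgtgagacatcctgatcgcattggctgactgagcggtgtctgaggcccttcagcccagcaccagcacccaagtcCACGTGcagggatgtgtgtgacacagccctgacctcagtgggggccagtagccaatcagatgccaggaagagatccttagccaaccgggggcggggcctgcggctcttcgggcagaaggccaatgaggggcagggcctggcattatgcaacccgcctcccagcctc
Per3 (chr4:151044666-151044915, - strand): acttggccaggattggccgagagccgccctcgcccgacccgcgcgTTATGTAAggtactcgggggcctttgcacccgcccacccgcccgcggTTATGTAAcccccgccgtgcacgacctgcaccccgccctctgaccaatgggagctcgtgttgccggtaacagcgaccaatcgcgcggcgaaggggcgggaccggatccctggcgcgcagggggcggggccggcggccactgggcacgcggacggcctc
Cry1 (chr10:85185055-85185304, - strand): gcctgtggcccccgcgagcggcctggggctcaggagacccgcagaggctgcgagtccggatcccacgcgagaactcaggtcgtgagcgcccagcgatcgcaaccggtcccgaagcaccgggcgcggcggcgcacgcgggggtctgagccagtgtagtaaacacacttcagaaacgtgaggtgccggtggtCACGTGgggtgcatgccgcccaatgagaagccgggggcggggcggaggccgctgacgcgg
Ciart (chr3:95882229-95882478, - strand): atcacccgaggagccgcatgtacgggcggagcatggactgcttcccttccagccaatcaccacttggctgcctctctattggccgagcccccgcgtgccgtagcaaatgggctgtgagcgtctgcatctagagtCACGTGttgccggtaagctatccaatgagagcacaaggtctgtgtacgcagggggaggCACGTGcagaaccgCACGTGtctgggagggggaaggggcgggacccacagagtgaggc
The first of 2 Per1 windows had an E-box at -166 and the Cry1 window one at -60. The Ciart window had 3 E-boxes, at -116, -58 and -44. Positions are counted from the transcript start of the window to the first base of the match. The second Per1 window had no match, and both Per1 windows lie inside the locus (69095108 to 69109965). The Per3 window had D-boxes at -205 and -158. Among all 32851 windows of the table, 7.15% held this E-box, 1.06% a D-box and 1.79% a cAMP response element. A match is a match of letters only, and no occupancy was measured.

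Libraries held 15304503 to 17744015 counts in male C-del, 14297620 to 15454510 in male mock, 10239329 to 12054871 in female C-del and 9285145 to 10790101 in female mock. The tissue was checked by its markers, since the extraction protocol names hearts. The summed level of 5 skeletal muscle markers was at least 85490 CPM (counts scaled to a common library size) in every library, against at most 27.4 CPM for 5 heart markers. Lsmem2 rose in both sexes, to 1497 ± 806 CPM in male C-del against 29.2 ± 0.552 CPM in male mock (SD, n = 4 each), and to 1967 ± 582 CPM in female C-del (SD, n = 4) against 31.2 ± 1.42 CPM in female mock (SD, n = 3); the adjusted p was 0.00223 in males and 3.05e-05 in females (edgeR). Whether each library stands for its own mouse is not stated in the labels. The p-values therefore reflect library-to-library spread, which may be technical. Male C-del columns stood in pairs: a chi-square of counts per gene was 4.53 between columns 1 and 2 and 4.26 between columns 3 and 4, but 11.2 to 13.6 across these pairs. Male mock columns 3 and 4 were also alike, at 2.48, the lowest within any group. It was 4.31 to 8.78 between the other male mock columns.

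The first question was how far the clock genes of C-del muscle differed from those of mock muscle in males. Per1 and Arntl rose, and the other 8 members did not pass at an adjusted p under 0.05 (edgeR's quasi-likelihood test, Benjamini-Hochberg over all genes tested). Passing genes made up 11.2% of the 14543 genes tested, 5.8% higher and 5.37% lower. The median log2 fold change of the 10 members was -0.0035, beside -0.0048 for all genes tested. The values of every library are shown in the plot of CPM by library. In such whole-muscle RNA, a change in the number of cells of a type cannot be told apart from a change in RNA per cell.

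**Figure D1:**
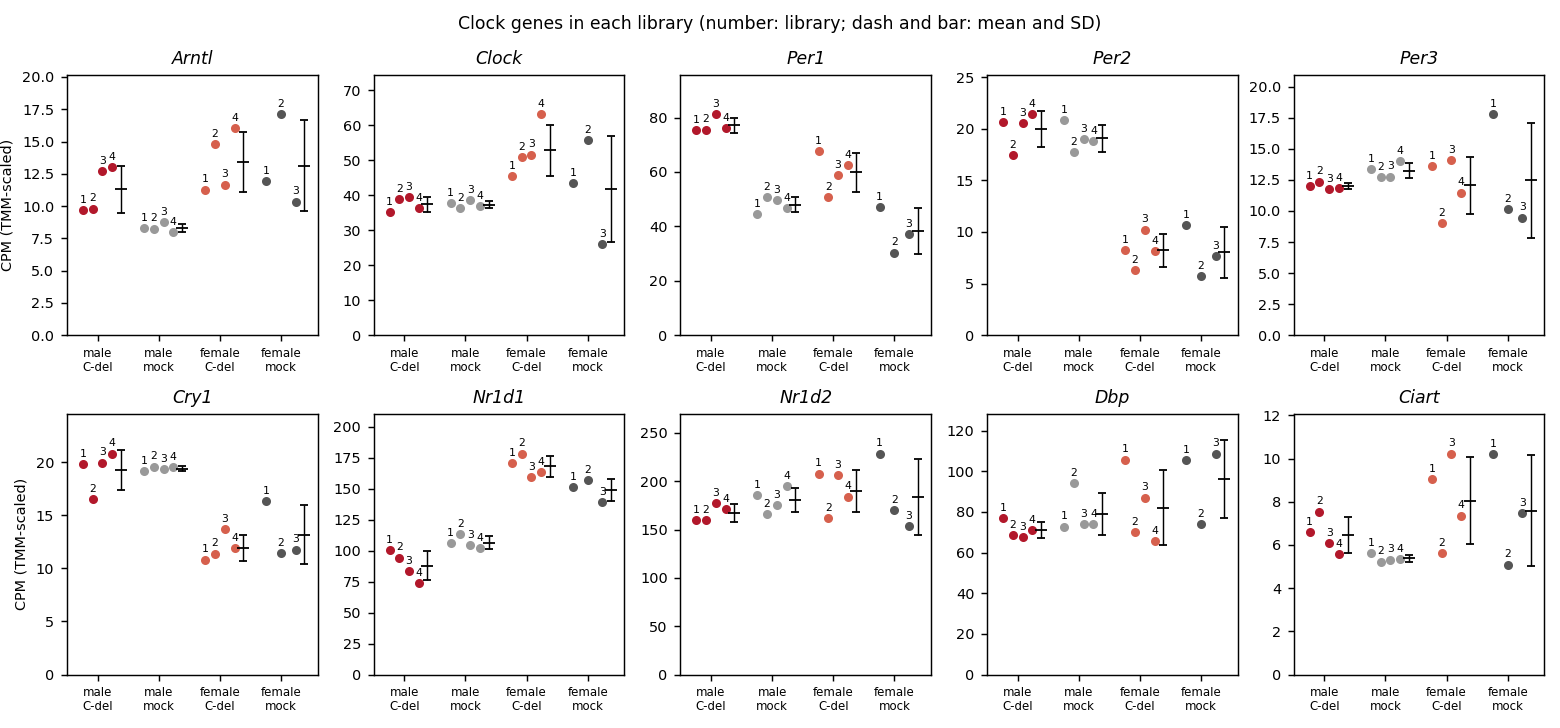
Level of each clock gene (y axis, CPM on TMM-scaled library sizes, from 0) in each library of the 4 groups (x axis); numbers beside points are library numbers, and dashes with bars are means and SD. Per1 was higher in every C-del library than in every mock library of the same sex, at 75.4 to 81.2 against 44.6 to 50.8 CPM in males.

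Per1 (chromosome 11, 69095108 to 69109965) encodes a period protein that represses ARNTL and CLOCK. Its level was 75.4, 75.6, 81.2 and 76.2 CPM in male C-del libraries 1 to 4, against 44.6, 50.8, 49.7 and 46.7 CPM in male mock libraries 1 to 4. The groups were far apart, and the C-del values lay within a narrow band. Per1 rose 1.61-fold, a log2 fold change of 0.68 ± 0.05 (SE; adjusted p = 3.82e-06 with edgeR). Permuting the libraries (log2 CPM, exact, two-sided) gave p = 0.0286, the smallest this design allows. The call held in all 15 alternatives run for males, with log2 fold changes of 0.65 to 0.72. With neighbouring columns summed, which left 2 values a group, the adjusted p was 0.00531.

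Arntl (chromosome 7, 113178471 to 113314126) encodes the activator BMAL1. It stood at 9.67, 9.81, 12.7 and 13.0 CPM in male C-del libraries, against 8.28, 8.25, 8.73 and 7.99 CPM in male mock libraries. The groups did not overlap, but C-del columns 3 and 4 lay well above columns 1 and 2, while the mock libraries lay close together. Arntl rose 1.36-fold, a log2 fold change of 0.44 ± 0.11 (SE; adjusted p = 0.0212 with edgeR; exact two-sided permutation p = 0.0286). Its call was lost in 7 of 15 alternatives: without C-del library 3 or 4 (adjusted p = 0.0553 and 0.0652), without mock library 1 or 4 (0.0505 and 0.0613), without mock libraries 3 and 4 together (0.108; 5.12% of all genes called), with neighbouring columns summed (0.211; 1.68% called) and in a joint fit of all 15 libraries (0.16; 2.49% called). The log2 fold change in those 7 was 0.37 to 0.45.

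Clock (chromosome 5, 76209868 to 76305603), the partner of ARNTL, stood at 35.1, 38.8, 39.4 and 36.2 CPM in male C-del libraries, against 37.6, 36.4, 38.5 and 36.8 CPM in male mock libraries. The groups overlapped throughout (log2 fold change 0.0023 ± 0.056, SE; adjusted p = 0.985 with edgeR). The count of Arntl per count of Clock, which no scaling of the library can move, was 0.253 to 0.360 in male C-del and 0.217 to 0.227 in male mock libraries.

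The other period genes did not pass. Per2 (chromosome 1, 91415977 to 91459351) stood at 20.6, 17.5, 20.6 and 21.4 CPM in male C-del libraries, against 20.8, 17.7, 18.97 and 18.8 CPM in male mock libraries. These values overlapped (log2 fold change 0.07 ± 0.08, SE; adjusted p = 0.638 with edgeR). Per3 (chromosome 4, 150997018 to 151044707) was at 11.8 to 12.4 CPM in male C-del, against 12.7 to 14.03 CPM in male mock libraries. All C-del values of Per3 lay under the mock values, yet the difference did not pass (log2 fold change -0.14 ± 0.07, SE; adjusted p = 0.254 with edgeR). Within each library, the count of Per1 per count of Per2 was 3.88 ± 0.343 in male C-del and 2.53 ± 0.308 in male mock (SD, n = 4 each).

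Among the other repressors, Cry1 (chromosome 10, 85131700 to 85185054), a cryptochrome that acts with the period proteins, had 16.6 to 20.8 CPM in male C-del, against 19.1 to 19.6 CPM in male mock libraries. Its lowest value was that of C-del column 2, and the groups overlapped (edgeR, adjusted p = 0.955). Ciart (chromosome 3, 95878500 to 95882257), a repressor of ARNTL and CLOCK activity also called Chrono, had 6.58, 7.54, 6.10 and 5.58 CPM in male C-del, against 5.62, 5.23, 5.32 and 5.35 CPM in male mock libraries. C-del library 4 lay within the mock range and the others above it, and the gene did not pass (log2 fold change 0.26 ± 0.12, SE; adjusted p = 0.167 with edgeR).

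Nr1d1 (chromosome 11, 98767932 to 98775377), the repressor of Arntl, had 100.3, 94.5, 83.2 and 73.6 CPM in male C-del libraries, against 106, 114, 105 and 102 CPM in male mock libraries. Every C-del library lay under every mock library, and columns 3 and 4, where Arntl was highest, were the lowest. The gene missed the threshold with edgeR (log2 fold change -0.28 ± 0.08, SE; adjusted p = 0.0523) and passed with DESeq2 (adjusted p = 0.0183), with which 10.4% of genes passed. It also passed with edgeR without C-del library 1 (adjusted p = 0.0169; 7.73% of all genes called) and without C-del columns 1 and 2 (log2 fold change -0.44, adjusted p = 0.000859; 7.57% called). The exons of Nr1d1 share 263 bases with those of Thra on the opposite strand in the GENCODE M21 annotation, and although the kit kept strand, per the labels, the counting option is not known here, so part of these counts is uncertain. Thra had a log2 fold change of -0.11 ± 0.04 (SE; adjusted p = 0.111 with edgeR).

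Nr1d2 (chromosome 14, 18204056 to 18239106), its paralogue, had 159 to 178 CPM in male C-del, against 166 to 195 CPM in male mock libraries and did not pass (edgeR, adjusted p = 0.227). Dbp (chromosome 7, 45705100 to 45710203), a D-box factor driven directly by ARNTL and CLOCK, had 76.8, 68.7, 67.8 and 71.1 CPM in male C-del libraries, against 72.8, 94.3, 74.2 and 73.9 CPM in male mock libraries. Mock library 2 stood above all others and the remaining values overlapped (log2 fold change -0.15 ± 0.08, SE; adjusted p = 0.263 with edgeR). Its exons share 539 bases with Sphk2 on the opposite strand, so its counts carry the same uncertainty. In all, the groups did not overlap for 4 of the 10 members in males (Per1 and Arntl higher, Per3 and Nr1d1 lower in C-del), beside 17.6% of all genes tested.

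The split between columns 1 and 2 and columns 3 and 4 of male C-del ran through 7 of the 10 members, beside 49.6% of all genes tested, so it was general to these libraries. Arntl, Per1, Cry1 and Nr1d2 were higher in both of columns 3 and 4 than in both of columns 1 and 2, while Nr1d1, Per3 and Ciart were lower. The same columns differed in macrophage markers: the summed level of 6 markers, all found, was 149, 166, 45.0 and 58.2 CPM in male C-del libraries 1 to 4, against 57.2 to 68.0 CPM in male mock libraries, and none of the markers was at 0 in a whole group. Without C-del columns 1 and 2 the log2 fold change of Arntl was 0.63 (edgeR, adjusted p = 0.00169) and that of Per1 was as large as with them. Tendon markers, 6 of 6 found, summed to 186 to 316 CPM in male C-del, against 294 to 465 CPM in male mock libraries, and their part in these results was not tested. Whether the paired columns share an animal, a leg or a time of collection is not given in the sources used here.

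**Figure D2:**
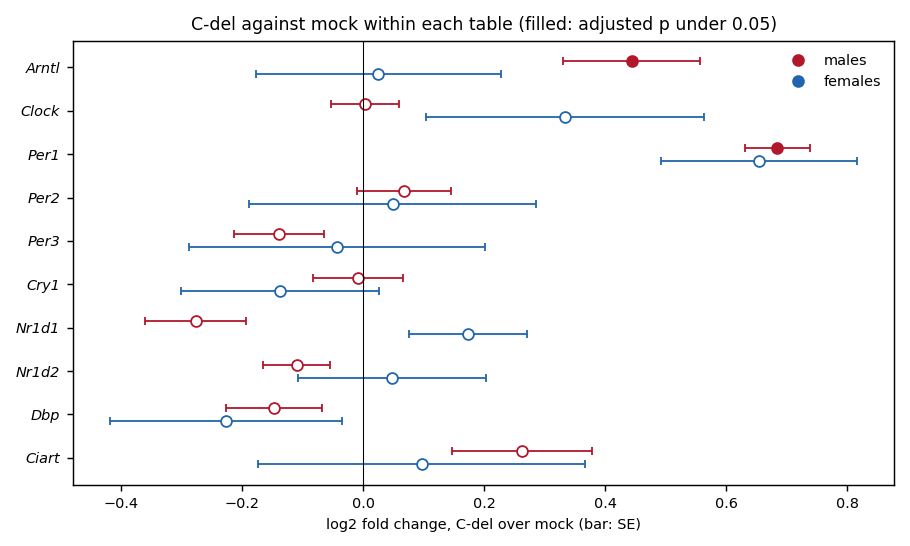
Log2 fold change of C-del over mock (x axis) for each clock gene (y axis) in males and females, with bars of 1 SE; filled points passed at an adjusted p under 0.05. Per1 had a log2 fold change of 0.68 in males and 0.65 in females, and the SE of females was the wider for each of the 10 genes.

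The same question was asked in females, where none of the 10 members passed with edgeR, and where 0.0141% of the 14220 genes tested did. At an unadjusted p under 0.05 (edgeR), 1 member was higher and 0 lower, beside 684 higher and 1008 lower of all genes tested. DESeq2 called 1 member, Per1, with 2.65% of all genes called, and so did the joint fit of all 15 libraries, with 5.09% called. The median log2 fold change of the members was 0.0477, beside -0.015 for all genes tested. Spread was wider than in males: the coefficient of variation of a member within a group had a median of 15.7% in female C-del and 24.5% in female mock, against 7.22% in male C-del and 4.69% in male mock.

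Per1 was again the member farthest from mock. It stood at 67.7, 50.7, 58.9 and 62.6 CPM in female C-del libraries 1 to 4, against 47.1, 30.4 and 37.1 CPM in female mock libraries 1 to 3. The groups did not overlap, although C-del library 2 lay close to mock library 1. Endothelial markers (4 of 4 found, none at 0 in a whole group) summed to 313, 333, 327 and 326 CPM in female C-del libraries, against 262, 279 and 239 CPM in female mock libraries, also without overlap. In males they summed to 324 to 347 CPM in C-del and 325 to 341.5 CPM in mock libraries, which overlapped. Their part in the female values of Per1 was not tested. The log2 fold change of Per1 was 0.65 ± 0.16 (SE; edgeR, adjusted p = 0.171; DESeq2, adjusted p = 0.0172; joint fit, adjusted p = 0.00963), and the exact two-sided permutation p was 0.0571, the smallest that 4 against 3 libraries allow. Without mock library 1 it was 0.83 (adjusted p = 0.0107; 7.14% of all genes called). Against mock library 1 alone it was 0.35 (adjusted p = 0.517; 0.0272% called), a fit in which that lone library takes its spread from the C-del ones. The count of Per1 per count of Per2 was 8.23, 7.99, 5.76 and 7.67 in female C-del and 4.42, 5.32 and 4.85 in female mock libraries, again without overlap.

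**Figure D3:**
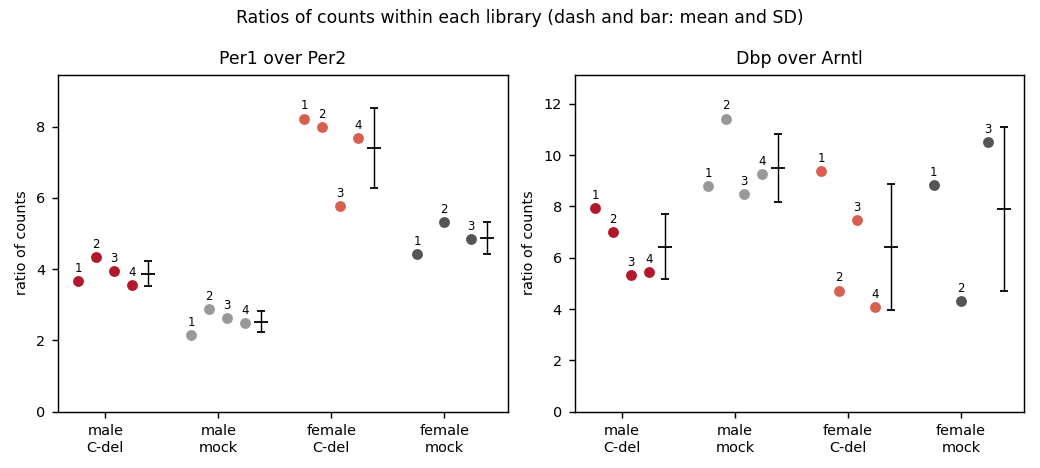
Ratio of counts within each library (y axis, from 0) in the 4 groups (x axis), for Per1 over Per2 on the left and Dbp over Arntl on the right; numbers are library numbers, and dashes with bars are means and SD. Per1 over Per2 did not overlap between C-del and mock in either sex, while Dbp over Arntl spread from 4.09 to 9.38 among female C-del libraries and from 4.33 to 10.5 among female mock libraries.

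Arntl did not differ detectably in females. It stood at 11.3, 14.8, 11.7 and 16.02 CPM in C-del and 11.96, 17.1 and 10.3 CPM in mock libraries (log2 fold change 0.02 ± 0.20, SE; adjusted p = 0.972 with edgeR). The highest value of all was that of mock library 2. Clock stood at 45.5, 50.9, 51.6 and 63.1 CPM in C-del and 43.5, 55.8 and 26.0 CPM in mock libraries. Mock libraries 2 and 3 were the extremes of the mock group. The log2 fold change of Clock was 0.33 ± 0.23 (SE, adjusted p = 0.596 with edgeR). The count of Arntl per count of Clock was 0.226 to 0.291 in female C-del and 0.275 to 0.399 in female mock libraries, which overlapped.

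Nr1d1 had 171, 178, 159 and 163 CPM in female C-del and 151, 157 and 139 CPM in female mock libraries. The C-del values lay above the mock values by a small step, and the gene did not pass (log2 fold change 0.17 ± 0.10, SE; adjusted p = 0.525 with edgeR). Per1 and Nr1d1 were the 2 members whose groups did not overlap in females, beside 10.1% of all genes tested. Thra, which overlaps Nr1d1, had a log2 fold change of 0.15 ± 0.09 (SE; adjusted p = 0.546 with edgeR).

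The remaining members overlapped between female groups and none passed. Per2 had 8.23, 6.35, 10.2 and 8.16 CPM in C-del and 10.6, 5.70 and 7.70 CPM in mock libraries. Per3 had 13.6, 9.01, 14.1 and 11.5 CPM in C-del and 17.8, 10.2 and 9.46 CPM in mock libraries. Both period genes were thus at their lowest or near it in C-del library 2 and in mock library 2. Dbp had 106, 69.9, 87.1 and 65.5 CPM in C-del and 106, 74.1 and 109 CPM in mock libraries. Ciart had 9.04, 5.61, 10.2 and 7.35 CPM in C-del and 10.2, 5.09 and 7.48 CPM in mock libraries. Ciart was lowest in library 2 of either group, while Dbp was lowest in C-del library 4 and mock library 2. Cry1 ranged from 10.8 to 13.7 CPM in C-del and from 11.4 to 16.4 CPM in mock libraries, and Nr1d2 from 162 to 208 CPM in C-del and from 153 to 229 CPM in mock libraries. Log2 fold changes of these 6 genes lay between -0.23 (Dbp) and 0.10 (Ciart), with adjusted p of 0.664 to 0.957 (edgeR).

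The map of deviations shows how libraries of a group stood to each other. In female C-del, libraries 1 and 3 lay above libraries 2 and 4 for 5 members (Per2, Per3, Nr1d2, Dbp and Ciart), lay below them for Arntl, and were mixed for the other 4. These pairs were picked with the values in view, and 34.9% of all genes tested were divided in the same way, in either direction. Between female mock libraries 1 and 2, library 1 was higher for 7 members (Per1, Per2, Per3, Cry1, Nr1d2, Dbp and Ciart) and lower for Arntl, Clock and Nr1d1. The count of Dbp per count of Arntl put this into 1 figure per library: 9.38, 4.72, 7.47 and 4.09 in female C-del libraries 1 to 4, and 8.82, 4.33 and 10.5 in female mock libraries 1 to 3. High and low values thus occurred in both female groups. In males the ratio was 7.95, 7.003, 5.33 and 5.45 in C-del, all below the 8.80, 11.4, 8.49 and 9.25 of mock.

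**Figure D4:**
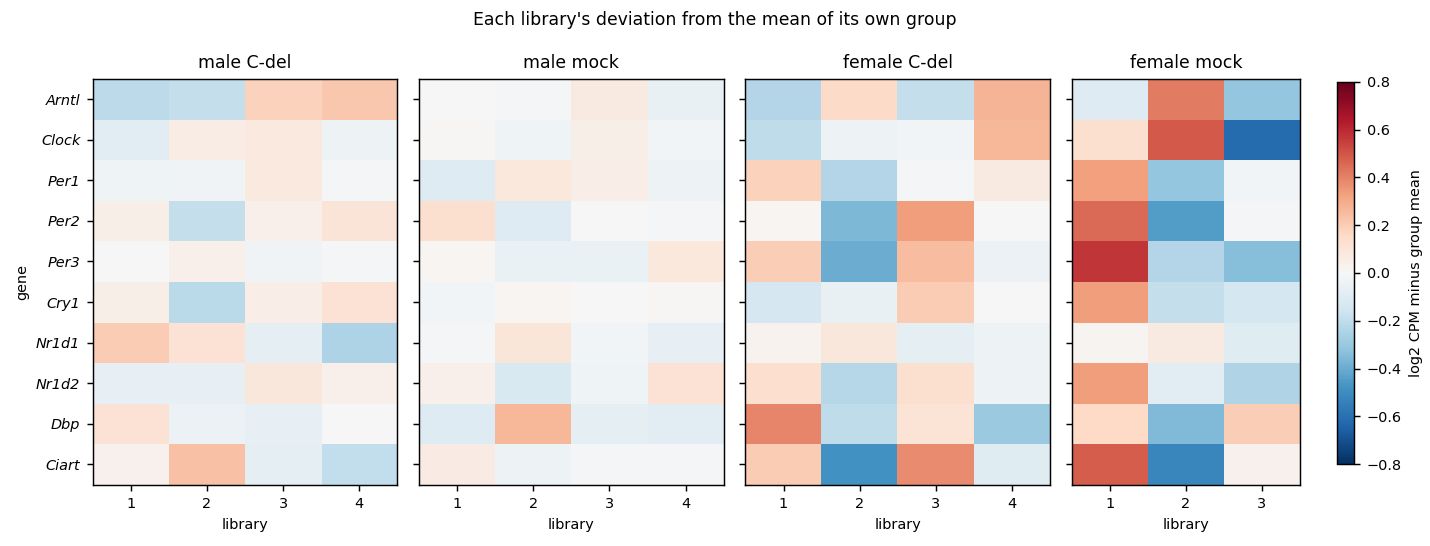
Log2 CPM of each clock gene (rows) in each library (columns) minus the mean of its own group, from blue (lower) to red (higher). Female mock library 1 was red for the Per genes, Cry1, Nr1d2 and Ciart where library 2 was blue, with Arntl the other way round; male mock libraries were paler, with a median coefficient of variation of 4.69%.

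Female mock libraries also stood apart in immune cell markers. The summed level of 5 leukocyte and antigen presentation markers, all found, was 49.3 to 97.3 CPM in female C-del libraries, against 79.5, 1500 and 1169 CPM in female mock libraries 1, 2 and 3. Macrophage markers, 6 of 6, summed to 43.7 to 93.8 CPM in female C-del and to 74.9, 431 and 211 CPM in those mock libraries. None of these markers was at 0 in a whole group. B cell markers, 4 of 4, summed to 0.439, 421 and 4.07 CPM in mock libraries 1, 2 and 3, and to 0.368 to 0.895 CPM in female C-del. Mock libraries 2 and 3 lay on opposite sides of their group mean for Arntl, Clock, Nr1d1, Dbp and Ciart. They lay on the same side for Per1, Per2, Per3, Cry1 and Nr1d2. The part of immune cells in the female values of clock genes was not tested beyond the fits without these libraries. Leaving out both left mock library 1 alone in its group. The log2 fold change was then -0.55 for Per3, -0.45 for Cry1, -0.36 for Per2 and Dbp, -0.33 for Ciart and -0.26 for Nr1d2 (edgeR). It was 0.35 for Per1, 0.28 for Clock, 0.17 for Arntl and 0.15 for Nr1d1.

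Whether the effect of C-del differed between females and males was tested as an interaction over all 15 libraries, in which sex and table cannot be told apart. None of the 10 members passed with edgeR, where 0.354% of 15272 genes did. At an unadjusted p under 0.05 (edgeR), 1 member was higher and 0 lower, beside 1083 higher and 1491 lower of all genes tested. Nr1d1 came nearest, with a female minus male difference of 0.45 ± 0.13 on the log2 scale (SE; adjusted p = 0.0906 with edgeR). DESeq2 called it (adjusted p = 0.0184), with 4.3% of all genes called, and so did edgeR without female mock library 1 (adjusted p = 0.0336; 11.5% called). The differences of Arntl and Clock were -0.42 ± 0.23 and 0.33 ± 0.23 (edgeR, adjusted p = 0.354 and 0.475), and that of Per1 was -0.03 ± 0.17 (adjusted p = 0.933).

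Levels were compared between genes only after division by exon length (GENCODE M21), as RPKM, the CPM per kilobase. Nr1d1, Nr1d2 and Dbp led in every group, and Per1 came next. In males Nr1d1 and Nr1d2 had 28.6 ± 3.86 and 30.9 ± 1.66 RPKM in C-del and 34.6 ± 1.65 and 33.3 ± 2.31 RPKM in mock, with overlapping ranges. In females Nr1d1 stood clear of Nr1d2, at 54.6 ± 2.74 and 35.1 ± 4.05 RPKM in C-del (SD, n = 4) and 48.4 ± 2.94 and 34.0 ± 7.31 RPKM in mock (SD, n = 3). Per1 had 13.7 ± 0.491 RPKM in male C-del and 8.52 ± 0.506 RPKM in male mock, and lay clear of its neighbours in the order in every group. Arntl, Per2 and Per3 shared the lowest places in females, with overlapping ranges in both female groups. In males Arntl was last in mock, at 1.10 ± 0.0412 RPKM, and moved above Per3 in C-del, at 1.50 ± 0.241 RPKM, where the ranges of both overlapped. Per2 had 3.42 ± 0.298 RPKM in male C-del and 3.26 ± 0.22 RPKM in male mock, but 1.41 ± 0.271 and 1.37 ± 0.425 RPKM in female C-del and female mock; these levels come from separate tables and were not tested against each other.

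The wider clock was read from 18 other clock genes, of which 15 were tested in males. Usp2, a deubiquitinase with strong daily rhythm, Nfil3, a repressor at D-boxes, and Csnk1d, a kinase of period proteins, rose, and Rora, an activator of Arntl, fell. Usp2 had 323 ± 7.61 CPM in male C-del, against 247.5 ± 4.58 CPM in male mock (SD, n = 4 each; log2 fold change 0.38; edgeR, adjusted p = 3.31e-05). Nfil3 rose 1.36-fold and Csnk1d 1.19-fold, whereas Rora fell 1.21-fold. Over the list, 3 of the 15 genes rose and 2 fell, beside 5.8% higher and 5.37% lower of all genes tested. The median log2 fold change of the 15 was 0.00785. Tef and Hlf, the relatives of Dbp, had log2 fold changes of -0.008 and -0.20 and did not pass (edgeR, adjusted p = 0.941 and 0.0576). With neighbouring columns summed 1 of the 15 genes was higher and 1 lower, beside 1.68% of all genes called in either direction. In females 0 of 15 passed with edgeR, 0 had an unadjusted p under 0.05, and DESeq2 called 0.

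Of all genes tested in males, 5.8% rose and 5.37% fell. Of 15 rhythmic outputs known across tissues or in muscle, 5 rose in male C-del, 0 fell, and the median log2 fold change was 0.26. They were Tsc22d3 (1.56-fold), a glucocorticoid-induced leucine zipper gene, the uncoupling protein gene Ucp3 (1.43-fold), Usp2, the lipase gene Pnpla2 (1.24-fold) and Por (1.19-fold), the reductase that serves cytochromes P450. Without mock columns 3 and 4 the count was 3 higher and 1 lower, beside 5.12% of all genes called in either direction. In the joint fit 2 were higher and 0 lower, beside 2.49% called in either direction. In females 0 of 15 passed with edgeR, none had an unadjusted p under 0.05, and DESeq2 called 0. This list shares 3 genes with the other clock genes and 3 with the next list.

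Per1 rose in males beside other genes that glucocorticoid induces. Of 16 such genes, Per1 left out, 9 rose in male C-del and 0 fell, beside 5.8% and 5.37% of all genes tested. The median log2 fold change of the 16 was 0.47. With neighbouring columns summed 5 rose, beside 1.68% of all genes called in either direction. Ddit4, a brake on mTORC1, had 61.7 ± 12.3 CPM in male C-del, against 12.6 ± 1.02 CPM in male mock (SD, n = 4 each; log2 fold change 2.30; edgeR, adjusted p = 3.03e-05). The transcription factor genes Cebpd and Cebpb rose 2.31-fold and 1.57-fold, and Errfi1, an inhibitor of EGF receptor signalling, rose 1.78-fold. The kinase gene Sgk1 rose 1.22-fold, and Tsc22d3, given above, is also in this list. Fkbp5, a chaperone of the glucocorticoid receptor, had 35.4 ± 7.10 CPM in male C-del, against 16.6 ± 2.71 CPM in male mock and rose 2.14-fold. Klf9 and Klf15, also induced by the hormone, had log2 fold changes of -0.09 each and did not pass. In females 0 of the 16 passed with edgeR, with a median of 0.17. At an unadjusted p under 0.05 (edgeR), 3 were higher and 0 lower, beside 684 and 1008 of the 14220 genes tested. DESeq2 called 3 of the 16 higher, beside 2.65% of all genes called in either direction. The female minus male difference passed for Ddit4 and Cebpd (log2 -2.06 and -1.23; edgeR, adjusted p = 0.00058 and 0.045).

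CREB targets and immediate early genes, a list of 14, moved in both directions in males: 3 rose and 3 fell. Of all genes tested, 5.8% rose and 5.37% fell. The median log2 fold change of the list was 0.34. With columns summed 1 fell, beside 1.68% of all genes called in either direction. Without mock columns 3 and 4 also 1 fell, beside 5.12% called in either direction. The kinase gene Sik1 rose 2.26-fold, the orphan receptor gene Nr4a1 1.84-fold and Jun 1.50-fold, whereas Egr1 fell 4.16-fold, Ier2 2.06-fold and Junb 1.40-fold. In females 0 of the 14 passed with edgeR, while an unadjusted p under 0.05 was reached by 10 higher, 0 lower. Of the 14220 genes tested in females, 684 higher and 1008 lower reached it. DESeq2 and the joint fit each called 6 of the list higher, beside 2.65% and 5.09% of all genes called. The median of the list was 0.90. Fos was at 47.5 ± 15.5 CPM in female C-del (SD, n = 4) and 9.57 ± 4.69 CPM in female mock (SD, n = 3). In males it was at 46.88 ± 27.15 CPM in C-del and 14.71 ± 3.57 CPM in mock (SD, n = 4 each). The adjusted p of Fos was 0.11 in females and 0.0909 in males (edgeR). Its female minus male difference was 0.63 on the log2 scale (edgeR, adjusted p = 0.649). The female minus male difference passed for Egr1 (log2 3.82; edgeR, adjusted p = 0.0225). Per1 had much the same log2 fold change in both sexes, 0.68 and 0.65, beside list medians of 0.47 and 0.17 for glucocorticoid-induced genes and of 0.34 and 0.90 for immediate early genes in males and females.

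**Figure D5:**
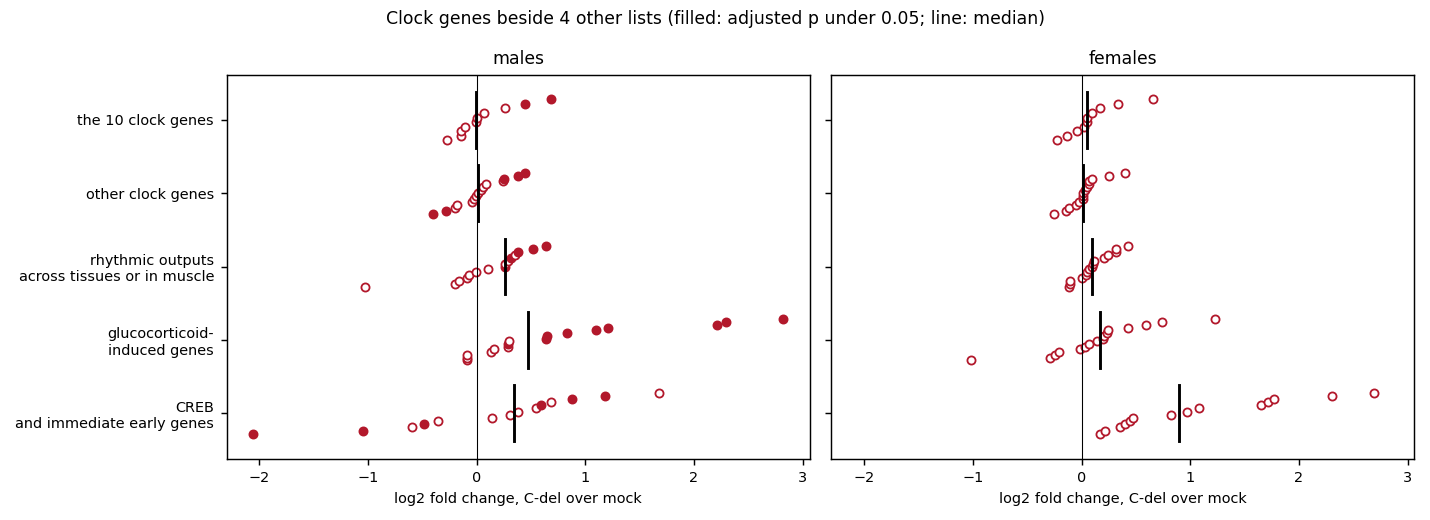
Log2 fold change of C-del over mock (x axis) for the 10 clock genes and 4 other lists (y axis) in males and females; each point is a gene, filled where it passed at an adjusted p under 0.05, and vertical lines are medians. The clock lists centre near 0 in both sexes, while the median of glucocorticoid-induced genes was 0.47 in males and that of immediate early genes 0.90 in females.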

How the data were processed

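RNA-seq libraries of mouse tibialis anterior were analysed from 2 tables deposited by the authors, 1 for males and 1 for females. The values are expected counts per gene as deposited by the authors, without normalisation: in each library 14.6% to 17.3% of them had a fraction (tolerance 0.001), and all were rounded before testing. Counting used featureCounts 2.0.0 on GRCm38.p6, per the submitters' processing notes; no source used here names the aligner or the options. Arntl, Per1, Cry1 and Ciart had whole counts in every library. Female columns carry the numbers of the titles; male columns match them by group, so male numbers are column numbers only. The design had assumed rounded counts and was kept.

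Genes were kept by filterByExpr (minimum count 10), scaled by TMM and tested with edgeR 4.0.16 (robust quasi-likelihood, R 4.3.3; limma 3.58.1), each sex alone and the difference over 15 libraries. SE is the log2 fold change over the root of F. DESeq2 1.42.0 was an alternative, as were other size factors, no filter, left-out libraries, a joint fit, a replicate block and summed columns. Python 3.11.15, pandas 2.3.3, scipy 1.17.1 and matplotlib 3.10.9 were used. Members and lists were chosen with earlier results of these data known, so counts over them are descriptions. All 10 members are named; of the other lists, up to 6 passing genes, and Tef, Hlf, Fkbp5, Klf9, Klf15 and Fos were picked after their values were seen. The result of 1 listed gene is not reported here. On simulated data edgeR recovered 92% of 2-fold changes for males (14543 genes), 72% for females (14220 genes) and 64% for the difference (15272 genes). False calls numbered 18 of 199 calls for males, 4 of 146 for females and 6 of 143 for the difference. Simulated libraries were drawn independently of each other, whereas male C-del columns stood in pairs.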

Additional observations from a re-analysis of the deposited data

Results flagged for a closer look

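Within groups of 4 libraries, 30 sets of values (10 members in 3 groups) were checked for a library far from the others by Dixon's test, and chance marks about 1 in 20 of such sets. 2 stood out. Per1 was 81.2 CPM in male C-del library 3, against 75.4 to 76.2 CPM in the other libraries of that group. Dbp was 94.3 CPM in male mock library 2, against 72.8 to 74.2 CPM in the other libraries of that group. Without C-del library 3 the male log2 fold change of Per1 was 0.66 (edgeR, adjusted p = 1.3e-05), and without mock library 2 that of Dbp was -0.05 (edgeR, adjusted p = 0.609).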

How the results depend on the processing

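Of 460 member fold changes recomputed under alternatives, 409 kept their direction and side of the threshold, 7 lost a call (Arntl in males), 8 gained one (Per1 in females, Nr1d1 in males and in the difference) and 36 changed sign, none of which passed. In males 2 members passed; the joint fit, summed columns and the fit without mock columns 3 and 4 each passed 1, and leaving out 1 library passed 1 to 3. In females 0 passed; DESeq2 and the joint fit each passed 1, and leaving out 1 library passed 0 to 1. For the difference 0 passed, 1 with DESeq2 and 0 to 1 with 1 library left out.

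Signs changed for Cry1 in males without C-del columns 1 and 2 (0.07), for Arntl and Per3 in females with a replicate block (-0.04 and 0.00), and for Per2, Nr1d2 and Ciart in females without mock libraries 2 and 3 (-0.36, -0.26 and -0.33). With 1 library left out, log2 fold changes in males ran from -0.02 to 0.03 for Clock and from -0.05 to 0.06 for Cry1. In females they ran from -0.12 to 0.27 for Arntl, -0.15 to 0.31 for Per2, -0.20 to 0.30 for Per3, -0.23 to 0.05 for Cry1, -0.07 to 0.23 for Nr1d2 and -0.13 to 0.37 for Ciart. Differences ran from -0.17 to 0.15 for Per1, -0.22 to 0.25 for Per2, -0.05 to 0.44 for Per3, -0.22 to 0.06 for Cry1, -0.24 to 0.02 for Dbp and -0.39 to 0.12 for Ciart. The cause was not tested.

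Same-numbered female libraries did not deviate together (correlations over 14220 genes of -0.178, -0.0123 and -0.0678), and none of these correlated best with its own number. Deviations were taken from means of 3 libraries, and mock libraries 2 and 3 were rich in immune markers. Such correlations cannot settle whether same-numbered libraries were handled together. With the replicate block 0 members passed (0.159% of all genes did), Per1 had a log2 fold change of 0.65 (adjusted p = 0.173), and calls over all genes numbered 25 against 2. Over all genes, female calls also moved to 377 with DESeq2, 777 in the joint fit, 16 with no filter, 4 without mock libraries 2 and 3 and 1 to 1050 with 1 library left out. Male calls moved from 1624 to 380 in the joint fit, 270 with columns summed and 767 without mock columns 3 and 4. Calls of the difference moved from 54 to 656 with DESeq2 and to 10 to 1817 with 1 library left out. The shallower female libraries and their wider spread limit what can be seen there: 16% of simulated 1.5-fold changes were recovered in females (14220 genes) and 70% in males (14543 genes).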
